A study of Mus musculus with 2 samples.

Results

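Cytosolic ribosomal protein (RP) genes encode the proteins of the ribosome that works in the cytosol. They were taken as every gene whose symbol starts with Rpl or Rps and a digit, or with Rplp, or is Rpsa, without pseudogene symbols (ending in -ps and a number) and without the Rps6k kinases. The rule found 86 of the 17232 genes measured. Of these, 46 encode standard proteins of the large subunit and 31 standard proteins of the small subunit, so all 77 standard genes listed for this comparison were present. The other 9 were paralogs or related genes (Rpl3l, Rpl7l1, Rpl22l1, Rpl36al, Rpl39l, Rps27l and Rps27rt), 1 processed pseudogene carried under a gene-like symbol (Rpl6l), and Rps19bp1, which encodes an Rps19-binding protein rather than an RP.

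The genes were measured in single tumor-infiltrating immune cells (TIIs), with RNA sequencing, from mice bearing B16-OVA tumors, a melanoma line that expresses ovalbumin. Maoa WT mice were compared with Maoa KO mice, in which the gene of monoamine oxidase A, an enzyme that degrades serotonin and related amines, is disrupted. The KO mice carried the germline 129S-Maoa tm1Shih/J allele, described as hypomorphic, with leakage in the brain but little enzyme left in spleen and bone marrow, and were backcrossed to C57BL/6J. TIIs of 10 tumors per genotype were combined at day 14, sorted as DAPI-CD45.2+ cells and made into 1 Chromium 3′ library per genotype from 10000 loaded cells. Single animals were not told apart, and the mice were young adult females unless the study said otherwise.

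RPs assemble with ribosomal RNA into a large subunit, which joins amino acids, and a small subunit, which reads the messenger RNA. Their mRNAs are among the most abundant in most cells, and most begin with a short run of C and T (a 5′ TOP motif) through which mTOR and Larp1 control when they are translated. Resting lymphocytes are small cells with little cytoplasm and are known to keep a store of TOP mRNAs, while activated lymphocytes also switch on the nucleolar genes that build new ribosomes. A high share of RP mRNA is therefore not a measure of how much protein a cell makes.

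The starts of these genes were read for the C and T run. Windows of 30 bases before and 20 after the start were read from RefSeq promoters on GRCm38.p6, which held 65 of the 86 genes. The windows below are of genes whose values stand out in the results (Rpl10, Rpl13a, Rpl31, Rps15a and Rps27l) and of genes with a clear run near the start (Rpl35 and Rps18). Capitals mark the longest run of C and T in a window where it is 8 bases or more, or the first where runs are equally long, as in Rps27l, and the Rpl10 window holds no such run.
Rpl10 (chrX:74270786-74270835, plus strand): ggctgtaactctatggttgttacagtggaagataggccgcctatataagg
Rpl13a (chr7:45128726-45128775, minus strand): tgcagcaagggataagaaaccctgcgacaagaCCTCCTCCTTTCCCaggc
Rpl31 (chr1:39367821-39367870, plus strand): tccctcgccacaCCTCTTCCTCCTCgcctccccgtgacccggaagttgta
Rpl35 (chr2:39005112-39005161, minus strand): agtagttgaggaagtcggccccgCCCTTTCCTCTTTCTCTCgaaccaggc
Rps18 (chr17:33955646-33955695, minus strand): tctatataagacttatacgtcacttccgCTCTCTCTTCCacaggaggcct
Rps15a (chr7:118116128-118116177, minus strand): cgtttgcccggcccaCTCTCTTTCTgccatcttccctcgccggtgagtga
Rps27l (chr9:66946056-66946105, plus strand): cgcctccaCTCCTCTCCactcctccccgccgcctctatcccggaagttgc
A run of this kind lay within 20 bases of the start in 49.1% of the 57 standard genes with a window, against 19.6% of all 12167 measured genes with one. Annotated starts are approximate, so a missing run in a window says only that these letters were not in it. The letters CTTTCC, searched on the sense strand within the same 20 bases, were found in 17.5% of standard RP genes and 2.33% of all genes. CTTCCGG, the core of many ETS factor motifs, was searched on both strands from 250 bases before to 50 after the start and was found in 42.1% against 17.3%. TATAAA within the last 50 bases before the start was found in 0 of the 57 standard genes and in 2.20% of all genes.

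Most of the transcript of Rps27rt, a copy of Rps27, also occurs in Rps27, which matters for how their counts can be read. Their windows are shown with the shared stretch in capitals.
Rps27 (chr3:90213629-90213678, minus strand): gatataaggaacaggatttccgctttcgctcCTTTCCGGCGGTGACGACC
Rps27rt (chr9:114982720-114982769, minus strand): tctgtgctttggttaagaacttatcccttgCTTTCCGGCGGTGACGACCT
The shared stretch ran for 38 bases of the window after each start, of which the part inside the 50 printed bases is shown. Over whole transcripts, 91.1% of the 50-base stretches of Rps27rt also occurred in Rps27 and 25% of those of Rps27 in Rps27rt, and 61.8% of those of Rpl6l occurred in Rpl6. Of the 86 genes, 43 shared at least 1 such stretch with another measured gene, while Rps27l, Rpl22l1, Rpl36al, Rpl39l, Rpl3l and Rpl7l1 shared 0% with the gene each is named after.

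The WT-labelled library held 2392 cells with a median of 9887.5 unique molecular identifiers (UMIs) per cell and the KO-labelled library 2630 cells with a median of 6945.5. The deposited values are natural logs of scaled counts, and undoing them gave back whole UMIs in every cell. Each UMI stands for 1 captured mRNA molecule counted at its 3′ end, so values are counts per 1000000 UMIs (CPM) with no division by length. Maoa had 7 UMIs in the WT-labelled and 15 in the KO-labelled library, so its counts do not bear out the genotype labels. Whether the disrupted allele still gives 3′ tags was not tested, and all directions between the libraries rest on the labels. With 1 library per genotype there is no replicate check and no test, and intervals are exact 95% intervals for counting error only. Cells fell into 15 clusters formed without the RP genes, and marker lists named 14 of them as T cell, NK cell, B cell, dendritic cell (DC), plasmacytoid DC (pDC) or tumor-associated macrophage and monocyte (TAM/Mono). Cluster 6 stayed unnamed: it detected 10 of 12 T-cell markers, but an NK-cell marker, Klra7, led it. The libraries shared 13 cell barcodes. Neutrophil mRNAs S100a8 and S100a9 summed to 307 and 54.6 CPM in the WT- and KO-labelled libraries, and cells with UMIs of both T-cell and myeloid markers (at least 3 UMIs of the Cd3 genes and at least 5 of 8 myeloid genes) made up 20.6 and 10.8% of cells.

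RP mRNAs took up a large and cell-type-dependent part of the mRNA pool. They made up 27.8 and 29.8% of all UMIs in the WT- and KO-labelled libraries. T cells gave 34.8 and 37.2% from 927 and 888 cells, and NK cells 35.3 and 36.0% from 188 and 268 cells. TAM/Mono cells gave the lowest class values, 19.4 and 21.8%, from 969 and 833 cells. DCs lay between at 25.02 and 28.1% (133 and 296 cells), as did pDCs at 27.2 and 27.9% (48 and 70 cells). B cells gave 43.4 and 37.9%, but from only 7 and 24 cells. The counting interval ran from 34.75 to 34.80% for T cells of the WT-labelled library and was widest for its B cells, at 42.9 to 43.9%. The order TAM/Mono, DC, pDC, T cell held in the WT-labelled library beyond counting error, and pDCs and DCs changed places in the KO-labelled library. Single cells ranged from 0.726 to 63.8%.

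The spread between single cells was wider than these intervals. The middle 50% of T cells ran from 30.9 to 39.8% in the WT-labelled and from 31.8 to 49.9% in the KO-labelled library. The same range in TAM/Mono cells was 15.0 to 22.9% and 19.4 to 25.1%, so these ranges of T cells and TAM/Mono cells did not overlap in either library. Cells are not replicates, and this is a description of 2 libraries.

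**Figure D1:**
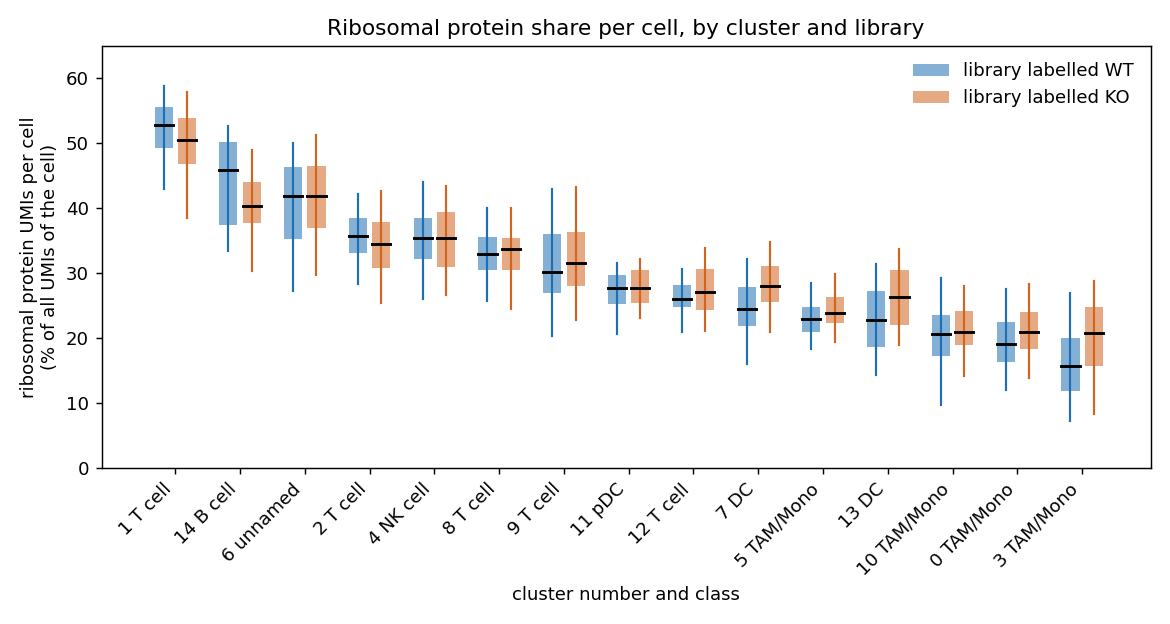
RP UMIs per cell as a percentage of all UMIs of the cell (vertical axis) for the 15 clusters (horizontal axis, ordered by level), WT-labelled library in blue and KO-labelled in orange. Black lines are medians over cells, boxes the quartiles and thin lines the 5th to 95th percentiles, with cluster 1 T cells at 52.8 and 50.5% at one end and cluster 3 TAM/Mono cells at 15.7 and 20.7% at the other.

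The share differed widely among the T-cell clusters. Cluster 1, led by Dapl1, Lef1, Tcf7 and S1pr1, genes of naive and memory T cells, gave 51.3 and 48.6% of UMIs on RP genes, the highest of the 15 clusters, from 151 and 402 cells. More than 45% of UMIs fell on RP genes in 89.4 and 84.6% of its cells, against 2.02 and 1.69% of cells of cluster 2. Cluster 2, led by Adgrg1, Cxcr6, Prf1 (perforin) and Lag3 (a checkpoint receptor), gave 35.3 and 34.8%. Cluster 8, led by histone and mitosis genes, gave 33.3 and 33.7%, and cluster 9, led by Foxp3, the defining factor of regulatory T cells, gave 31.0 and 32.01%. The unnamed cluster 6 gave 40.4 and 41.2% and was the nearest to cluster 1 among clusters of over 100 cells in each library.

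Cluster 1 was also shallow, with medians of 4663 and 4579.5 UMIs per cell against 12314 and 8715 in cluster 2 and 19704 and 20644 in cluster 8. Among T cells with 4000 to 8000 UMIs the share was 39.1 and 43.4%, and with 16000 or more it was 33.6 and 32.6%. Cluster 9 was about as shallow, with medians of 5302.5 and 4251 UMIs, at a share of 31.0 and 32.01%. Hemoglobin took 1.14 and 0.853% of UMIs in cluster 1, where 1 and 3 cells held 1% or more of it and had RP shares under 10%. Cluster 12 was counted with T cells but was mixed, since Cd3d was detected in 82.9% and the macrophage gene C1qa in 40.8% of its cells, and it gave 26.2 and 27.8%. Cells with UMIs of both T-cell and myeloid markers made up 38.7 and 40.0% of cluster 12, but also 57.8 and 54.3% of cluster 8 and 35.2 and 25.8% of cluster 2, against 3.31 and 3.23% of cluster 1. Without such cells, cluster 1 gave 51.2 and 48.5%, cluster 2 35.6 and 34.8% and cluster 8 32.3 and 33.0% of UMIs on RP genes.

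Other genes of the translation machinery followed the pattern of cluster 1 only in part. Of RP genes with at least 100 UMIs over both clusters of a library, 61 of 84 and 60 of 84 were at least 1.2-fold higher in cluster 1 than in cluster 2 in the WT- and KO-labelled libraries, against a background of 13.2% and 17.7% of all genes. The median log2 ratio over RP genes was 0.48 and 0.41, and over all genes -0.55 and -0.33. Since CPM has a fixed total, a larger RP share leaves less of it to all other genes. Genes of mitochondrial ribosomal proteins, which serve the separate ribosome of mitochondria, had medians of -0.71 and -0.52, with 62 of 71 and 48 of 67 at least 1.2-fold lower in cluster 1 (background 67.1% and 54.5%). Genes of ribosome biogenesis, the nucleolar assembly of new ribosomes, had medians of -0.35 and -0.07. Translation factors and other TOP mRNAs had medians of -0.06 and -0.05. Biogenesis genes and TOP mRNAs thus lay above the median of all genes, and of these 4 lists only the cytosolic RP genes had a median above 0.

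The T cells led by mitosis genes were set against the same cluster 1, so this ratio shares its cells with the one before. In cluster 8 over cluster 1, the RP genes had medians of -0.53 and -0.49 against 0.66 and 0.47 over all genes, and 66 of 84 and 60 of 84 were at least 1.2-fold lower (background 13.7% and 18.3%). Genes of ribosome biogenesis had medians of 0.55 and 0.58, with 19 of 26 and 18 of 24 at least 1.2-fold higher (background 69.8% and 61.0%), so this list lay near the background. Mitochondrial RP genes had medians of 0.93 and 0.75. Clusters were formed on other genes of the same cells, so these ratios are descriptions. Without cells that carried both T-cell and myeloid UMIs, the RP medians were 0.45 and 0.43 in cluster 1 over cluster 2 and -0.57 and -0.48 in cluster 8 over cluster 1.

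**Figure D2:**
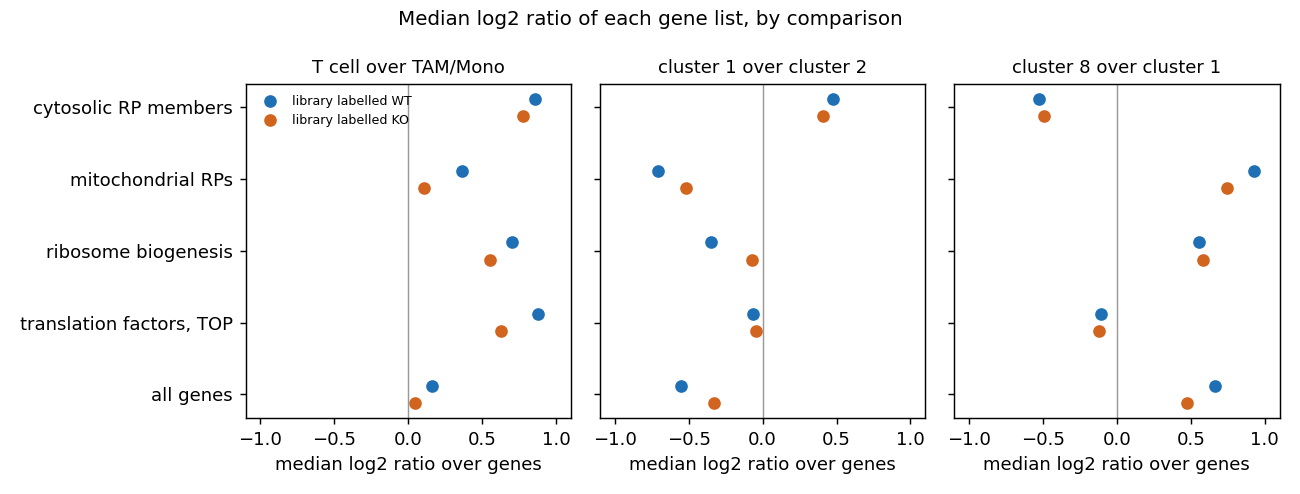
Median log2 ratio over the genes of each list (horizontal axis) in T cells over TAM/Mono cells, cluster 1 over cluster 2 and cluster 8 over cluster 1, with the WT-labelled library in blue and the KO-labelled library in orange. The cytosolic RP genes lie at 0.48 and 0.41 in cluster 1 over cluster 2, where mitochondrial RP genes lie at -0.71 and -0.52 and all genes at -0.55 and -0.33.

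The difference between T cells and TAM/Mono cells ran through nearly the whole family. With at least 100 UMIs, 79 of 84 and 79 of 84 RP genes were at least 1.2-fold higher in T cells in the WT- and KO-labelled libraries (background 45.7% and 38.5%), and 2 in each library were at least 1.2-fold lower (background 32.9% and 35.7%). The median log2 ratio was 0.86 and 0.78, against 0.16 and 0.04 over all genes. Both subunits took part: the medians were 0.86 and 0.74 over the large-subunit and 0.88 and 0.81 over the small-subunit genes. Of the other lists, 15 of 16 and 15 of 16 TOP mRNAs and 25 of 29 and 21 of 28 biogenesis genes were at least 1.2-fold higher in T cells. Of the mitochondrial RP genes, 45 of 76 and 31 of 76 were. In the KO-labelled library the mitochondrial RP list thus lay near the background of 38.5%, with a median of 0.11 and 10 of 76 lower. In this comparison the list of regulators, with Myc, Mtor and Larp1, had medians of -0.10 and -0.04. Its genes went both ways: 2 of 11 and 4 of 11 were at least 1.2-fold higher in T cells, and 5 of 11 and 3 of 11 lower. Myc was among the 2 highest of the list in both libraries, and Eif4ebp1 was the lowest.

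Among large-subunit genes, Rpl13a, which also takes part in the control of inflammatory mRNAs, was at 8519 and 8779 CPM in T cells of the WT- and KO-labelled libraries and at 3200.1 and 3519 CPM in TAM/Mono cells. Its log2 ratios of 1.41 and 1.32 were among the largest of the family. Rplp0, the stalk protein that anchors Rplp1 and Rplp2, was at 8354 and 7869 CPM in T cells and 3699 and 3958 CPM in TAM/Mono cells. Rpl41, a very short protein and the gene with the most UMIs of the family (444386 over both libraries), was at 10783 and 10432 CPM against 6185 and 6552 CPM. Rpl10, which is needed for the late maturation of the large subunit, stood apart: it was at 3845 and 3878 CPM in T cells and 3572 and 3982 CPM in TAM/Mono cells, log2 ratios of 0.11 and -0.04. It was the only one of the 77 standard genes whose ratio was below 1.2-fold in both libraries.

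Among small-subunit genes, Rpsa, a platform protein also known as the laminin receptor, was at 4156 and 4087 CPM in T cells and 1558 and 1755 CPM in TAM/Mono cells, log2 ratios of 1.42 and 1.22. Rps15a, a conserved small-subunit protein, was at 6439.7 and 7697 CPM against 2641 and 3173 CPM. Rps29, a short zinc-binding protein of the head, was at 6982 and 8410.0 CPM against 5687 and 6430.0 CPM, log2 ratios of 0.30 and 0.39, and so lay at the low end of the small-subunit genes. Rps25 also lay there, with ratios of 0.31 and 0.31.

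**Figure D3:**
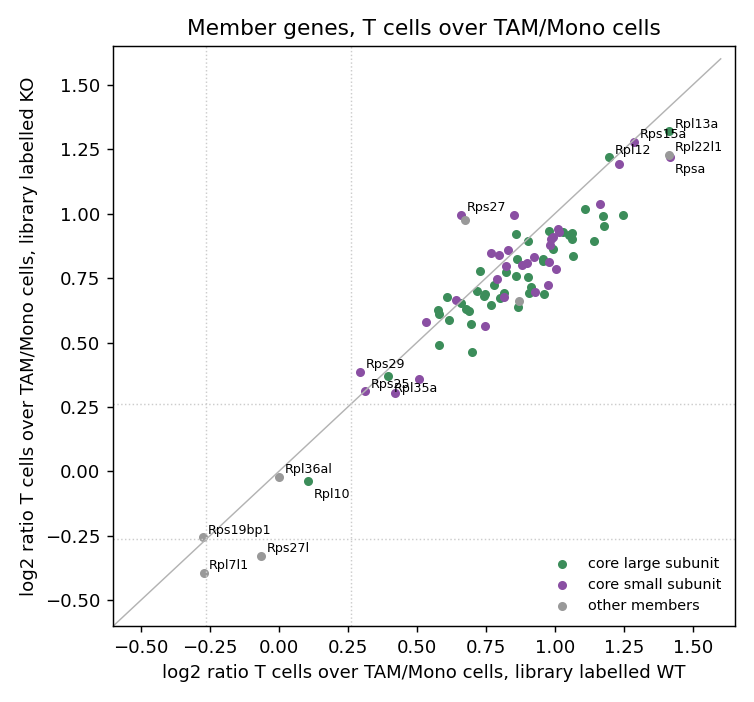
Log2 ratio of CPM in T cells over TAM/Mono cells in the WT-labelled (horizontal axis) and the KO-labelled library (vertical axis), 1 point per RP gene with at least 1000 UMIs. Dotted lines mark 1.2-fold and the grey line equal ratios, and all points but Rpl10, Rpl36al, Rps19bp1, Rps27l and Rpl7l1 lie above 1.2-fold in both libraries.

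Rps27l differed from its namesake, while the copy Rps27rt had T-cell over TAM/Mono log2 ratios of 0.68 and 0.98, close to those of Rps27. Rps27l, a p53-responsive paralog of Rps27, was at 572 and 491 CPM in T cells and 597 and 616 CPM in TAM/Mono cells, while Rps27, a zinc-binding small-subunit protein, was at 6417 and 9476 CPM against 4059.5 and 4754 CPM. Their levels went different ways across clusters. Rps27 was highest in cluster 1, at 17849.8 and 17507 CPM, and lowest in cluster 10 (C1q-high TAM/Mono cells), at 3166 and 3256 CPM. Rps27l was lowest in clusters 1 and 6, at 177 and 210.4 CPM and 214 and 213 CPM, and was at 878 and 931 CPM in cluster 10 and highest in cluster 13 (DCs led by Fscn1, Ccl22 and Ccr7), at 1307 and 1071 CPM.

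Rpl22l1, the paralog of Rpl22 that is known to be repressed by Rpl22 protein, was at 1546 and 1433 CPM in T cells and 580.4 and 612 CPM in TAM/Mono cells, and Rpl22 was at 1568 and 1582 CPM and 921 and 1010.1 CPM. Rpl36al was at 1005 and 1045 CPM and 1003 and 1061 CPM, log2 ratios of 0.00 and -0.02, while Rpl36a was at 2807 and 2866 CPM and 1303 and 1414 CPM. Rpl7l1, a nucleolar assembly protein, had the ratios -0.27 and -0.39 and Rps19bp1 -0.28 and -0.26, and neither product is a part of the mature ribosome. Rpl3l, a form of Rpl3 made in muscle, had 133 UMIs and Rpl39l, a form made in testis, 79 UMIs over both libraries. Rpl3l was at 4.84 and 6.23 CPM in TAM/Mono cells and at 2 and 0 UMIs in T cells.

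**Figure D4:**
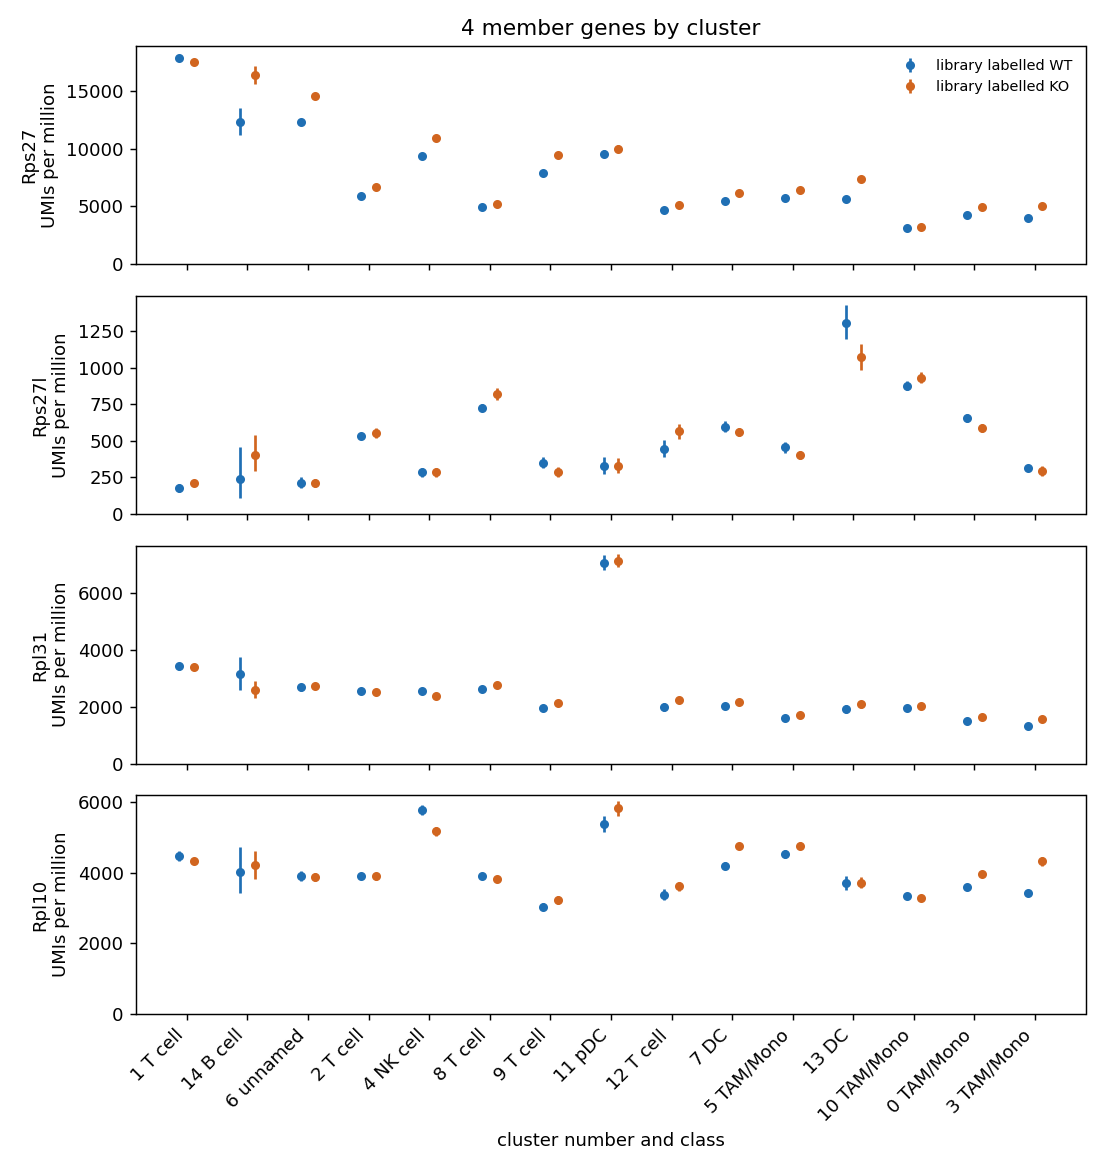
CPM of Rps27, Rps27l, Rpl31 and Rpl10 (vertical axes, from 0) in the 15 clusters, ordered by RP share, for the WT-labelled (blue) and KO-labelled library (orange), with bars for the exact 95% counting interval. Rps27 is highest in cluster 1 at 17849.8 and 17507 CPM, Rps27l in cluster 13 at 1307 and 1071 CPM, and Rpl31 in cluster 11 (pDCs) at 7081 and 7139 CPM, while Rpl10 is highest in cluster 4 (NK cells) in the WT-labelled and in pDCs in the KO-labelled library.

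The composition of the RP mRNA pool was otherwise similar between T cells, NK cells, TAM/Mono cells and DCs. Each gene was expressed as a share of all RP UMIs, and its range between these classes was taken on the log2 scale. For each gene the smaller of its ranges in the 2 libraries was kept, so the wider one is not counted here. The median of these smaller ranges over the 77 standard genes was 0.20, and 58 of 77 were below 0.3. The gene with the widest range was Rpl10, at 1.11 and 1.04% in T cells, 1.63 and 1.44% in NK cells, 1.84 and 1.82% in TAM/Mono cells, 1.64 and 1.64% in DCs in the WT- and KO-labelled libraries. Rpl13a went the other way, at 2.45 and 2.36% in T cells, 2.43 and 2.34% in NK cells, 1.649 and 1.61% in TAM/Mono cells, 1.999 and 1.85% in DCs. Across the 77 genes, the log2 shares of T cells and TAM/Mono cells had Pearson's r of 0.917 in the WT-labelled and 0.931 in the KO-labelled library. The profile of pDCs was less alike, with r of 0.830 and 0.863 between T cells and pDCs. Genes of one library share its depth and capture and are not independent.

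One standard gene marked pDCs, the interferon-producing dendritic lineage. Rpl31, a large-subunit protein near the exit of the peptide tunnel, was picked out after its values were seen. It took 2.60% (95% interval 2.51 to 2.70) of the RP UMIs of pDCs in the WT-labelled and 2.56% (2.48 to 2.64) in the KO-labelled library. In T cells, NK cells, TAM/Mono cells and DCs it took 0.721 to 0.824% and 0.663 to 0.817%. Its level in pDCs was 7081 and 7139 CPM, against 2576 and 2747 CPM in T cells. When every cell was thinned to 4000 UMIs, leaving out shallower cells, pDCs held a mean of 28.2 and 29.3 Rpl31 UMIs (48 and 70 cells), and the other classes 6.15 to 10.1 and 6.94 to 11.4. The lowest pDC held 7 and 14 UMIs and the highest 46 and 46, and Rpl31 was detected in all pDCs of both libraries. Rpl31 lies at chr1:39367842-39371911 on the plus strand (GRCm38) and shared 0% of its 50-base stretches with other measured genes.

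Rps27 and Rpsa differed in pDCs by less. Rps27 took 3.51 and 3.59% of RP UMIs in pDCs, above 2.66 and 3.03% in the highest of the other 4 classes. Rpsa took 0.632 and 0.635%, below 0.803 and 0.804% in the lowest of them. Rpl31 stood at a log2 distance of 1.75 and 1.78 from the mean of the other classes, while Rps27 stood at 0.67 and 0.52, and Rpsa at -0.63 and -0.56.

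Between the libraries, the RP share of pooled UMIs was higher in the KO-labelled library in every named class but B cells. The difference, KO-labelled minus WT-labelled, was 2.39 percentage points in T cells, 2.42 in TAM/Mono cells, 3.10 in DCs, 0.687 in NK cells and 0.684 in pDCs. In B cells it was -5.49 points, from 7 and 24 cells. For the median over cells the NK-cell difference turned to -0.0939 and the pDC difference to -0.0659, so neither direction was firm. Markers of other cells differed as well. A list of 10 neutrophil genes, all with UMIs, summed to 222 and 46.9 CPM in T cells and 592 and 221 CPM in TAM/Mono cells. The same list summed to 112 and 13.6 CPM in DCs, with Stfa2l1 at 0. In NK cells, where 8 and 4 of its genes had UMIs, it summed to 126 and 17.9 CPM. In T cells 5 erythroid genes summed to 1349 and 2347 CPM and 7 melanoma genes to 105 and 163 CPM, and in TAM/Mono cells to 19.0 and 19.0 CPM and 47.4 and 28.8 CPM, with Alas2 at 0 in TAM/Mono cells of the WT-labelled library. Cells with UMIs of both T-cell and myeloid markers made up 32.3 and 16.7% of T cells in the WT- and KO-labelled libraries. They made up 15.0 and 8.04% of TAM/Mono cells and 27.8 and 19.6% of DCs. The part of the neutrophil and melanoma mRNAs in the differences was not tested. Without cells rich in hemoglobin the T-cell difference was 2.44 points. Without the cells that carried both T-cell and myeloid UMIs the differences were 3.19 points in T cells and 2.55 in TAM/Mono cells. Among cells of 4000 to 12000 UMIs they were 4.21 points in T cells, 3.59 in TAM/Mono cells and 1.80 in NK cells. With classes gated by marker UMIs in place of clusters they were 3.49, 3.93 and -0.983 points.

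In T cells the difference went with the mix of clusters. Of 10 genes of naive and memory T cells, 9 were at least 1.2-fold higher in T cells of the KO-labelled library (background 16.4%). The remaining gene, Klf2, went the other way, at a log2 ratio of -0.29, which is past 1.2-fold lower. Of 18 cell-cycle genes 17 were at least 1.2-fold lower (background 21.5%). Cluster 1 held 16.3% of T cells and 6.70% of their UMIs in the WT-labelled library, and 45.3% and 27.4% in the KO-labelled library. Within cluster 1 the share differed by -2.73 points, and in cluster 2 by -0.504 points. In the other T-cell clusters it differed by 0.475 points (cluster 8), 0.966 points (cluster 9) and 1.53 points (cluster 12). With each T-cell cluster weighted to the same mix in both libraries, the difference was -0.191 points. Other cluster settings moved the difference in either direction. It was -0.246 points at resolution 0.4 and -0.237 points with 20 principal components, where cluster 1 and cluster 6 joined into a cluster that took no name and left the T cells, and 2.91 points at resolution 1.2 and 3.19 points without depth regression.

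TAM/Mono cells kept a difference within their clusters. It was 1.499 points in cluster 0, 1.35 in cluster 5, 0.751 in cluster 10 and 3.57 in cluster 3, and 1.70 points with the clusters weighted to the same mix. Cluster 3 was led by Inhba, Cxcl3 and the hypoxia-responsive genes Egln3 and Hilpda. It made up 36.0% of TAM/Mono cells in the WT-labelled and 15.6% in the KO-labelled library, with median shares of 15.7 and 20.7%. In cluster 3, 52 of 84 RP genes were at least 1.2-fold higher in the KO-labelled library (background 19.3%) and 0 lower (background 27.1%), at a median log2 ratio of 0.28, the one cluster of these where the count stood above the background. In the same cluster, S100a8 and S100a9 summed to 857 and 17.97 CPM in the WT- and KO-labelled libraries, and cells with UMIs of both T-cell and myeloid markers made up 12.03 and 7.69%, and their part in the result was not tested.

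The other large clusters held few RP genes past 1.2-fold. In cluster 0, 4 of 84 were higher (background 11.7%) and 0 lower (background 20.4%), at a median of 0.10. In cluster 5, led by Ace and Treml4, markers of patrolling monocytes, 6 of 84 were higher (background 15.7%) and 0 lower (background 18.5%), at 0.08. In cluster 10, 4 of 84 were higher (background 23.1%) and 0 lower (background 12.9%), at 0.05. Among T cells, cluster 1 had 2 of 84 higher (background 30.8%) and 2 of 84 lower (background 10.9%), with a median of -0.05 against 0.12 over all genes. Cluster 2 had 2 of 84 higher (background 13.8%) and 0 lower (background 19.9%), at -0.03, and cluster 8 had 2 of 84 higher (background 13.1%) and 0 lower (background 17.4%), at 0.02. The medians of the remaining T-cell clusters were 0.04 in cluster 9 and 0.09 in cluster 12.

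Cells at the extremes came from few clusters. Of 72 WT-labelled cells with under 10% of UMIs on RP genes, 53 were in cluster 3, and of 18 such KO-labelled cells, 9 were. In the WT-labelled library, Spp1 (osteopontin) was at 9751 CPM in these low cells of cluster 3, against 4536 CPM in its other cells, and S100a8 at 1658 against 322 CPM. These cells were picked by their RP share, and CPM of other genes rises as that share falls. Above 45% there were 199 WT-labelled cells, 135 of them in cluster 1, and 446 KO-labelled cells, 340 of them in cluster 1.

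Gene by gene, most RP genes differed by little between the libraries, and most were above 0 in TAM/Mono cells and DCs. In TAM/Mono cells the median log2 ratio, KO-labelled over WT-labelled, was 0.17 against 0.06 over all genes, with 82 of 85 RP genes above 0. Since the median over all genes was above 0 there, more of all genes lay above 0 than below it as well. There, 7 of 85 were at least 1.2-fold higher (background 20.9%) and 0 lower (background 14.1%). In DCs the median was 0.17 against -0.09, with 79 of 84 above 0, 8 of 84 at least 1.2-fold higher (background 11.7%) and 1 lower (background 27.4%). These shares past 1.2-fold were at or below the background, and the medians rest on small ratios in most members.

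In T cells the median was 0.08 against -0.05, with 64 of 84 above 0, 8 of 84 at least 1.2-fold higher (background 16.4%) and 0 lower (background 21.5%). In NK cells the median was 0.03, with 2 of 83 at least 1.2-fold higher (background 16.1%) and 1 lower (background 16.6%). In pDCs it was 0.03, with 2 of 82 higher (background 13.1%) and 0 lower (background 17.7%). The median in T cells was -0.02 at resolution 0.4 and -0.01 with 20 principal components, in step with the share. The biogenesis list had medians of -0.14 in T cells and 0.12 in TAM/Mono cells, and the mitochondrial RP list -0.11 and 0.05.

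**Figure D5:**
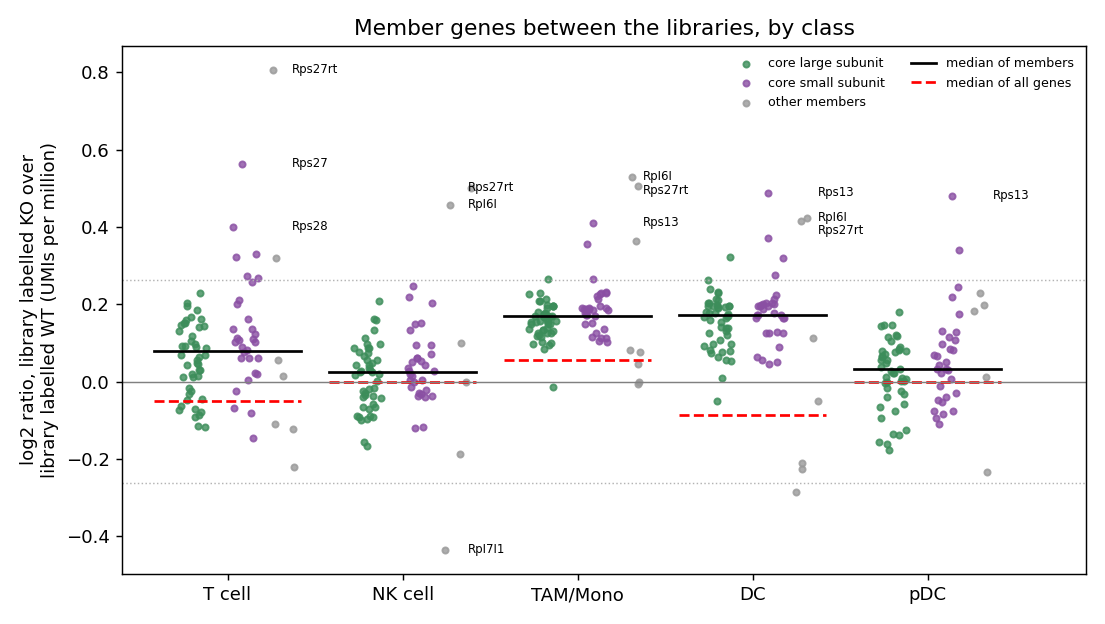
Log2 ratio of CPM, KO-labelled over WT-labelled library (vertical axis), for each RP gene with at least 100 UMIs in the class (points, coloured by subunit), in 5 classes. Solid lines are medians of the RP genes (0.08 in T cells and 0.17 in TAM/Mono cells), dashed lines medians of all genes, and dotted lines 1.2-fold in either direction.

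Among standard genes, small-subunit genes stood highest in T cells. In T cells Rps27 was at 6417 and 9476 CPM in the WT- and KO-labelled libraries, a log2 ratio of 0.56 (95% interval 0.55 to 0.58). Rps28, a short small-subunit protein near the mRNA exit, was at 4281 and 5644 CPM in T cells and 2957 and 3781 CPM in TAM/Mono cells, ratios of 0.40 and 0.35. Rps13 was at 3823 and 4781 CPM and 1893 and 2514 CPM, ratios of 0.32 and 0.41. Over the 15 clusters, Rps15a, Rps27rt, Rps28 and the large-subunit gene Rpl18 (lowest ratio 0.01) were above 0 in all 15, and Rpl15, Rpl37, Rpl6l, Rplp1, Rps13, Rps16 and Rps27 in 14 of 15. For Rps27 the exception was cluster 1, at 17849.8 and 17507 CPM, and in cluster 2 it was at 5903 and 6689 CPM, a smaller difference than over all T cells. Relative to all RP UMIs, Rps13, Rps15a, Rps27rt and Rps28 were above 0 in all 15 clusters, and Rpl36, Rpl6 and Rps4x below 0 in all 15. In NK cells Rps28 was at 0.15 and in pDCs at 0.34.

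At the other end, Rpl6 was at 4322 and 3987 CPM in T cells, a log2 ratio of -0.12 (95% interval -0.14 to -0.10), and at 2369 and 2565 CPM in TAM/Mono cells, 0.12 (95% interval 0.09 to 0.14). Rps2, a small-subunit protein near the mRNA entry, had ratios of -0.15 and 0.11, and Rpl36 of -0.02 and -0.01. Of the RP genes on chromosome X, which also carries Maoa, Rpl39, Rpl10 and Rpl36a had T-cell ratios of 0.02, 0.01 and 0.03, and Rps4x of -0.07. In TAM/Mono cells these 4 genes had ratios of 0.15, 0.16, 0.12 and 0.15, around the family's median of 0.17.

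The balance of the subunits differed slightly between the libraries. The UMIs of the 46 large-subunit genes divided by those of the 31 small-subunit genes were lower in the KO-labelled library in 15 of 15 clusters, at 1.198 to 1.37 in the WT-labelled and 1.17 to 1.34 in the KO-labelled library. Without Rps27, Rps28, Rps13, Rps15a, Rps21 and Rps29, chosen after their values were seen, the ratio was lower in 9 of 15 clusters. In T cells the large-subunit share was 19.6 and 20.5% of UMIs and the small-subunit share 14.7 and 16.2%.

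Genes that shared sequence with an RP gene had higher ratios between the libraries than that RP gene. Leaving out Rpl6l and Rps27rt, which are copies themselves, 22 RP genes shared at least 10% of their 50-base stretches with another measured gene, such as Rpl10-ps3 for Rpl10 and Gm8730 for Rplp0. Not every partner is a copy, since that of Rplp2 was Wdr89, a gene of another family. In T cells the partner had a higher log2 ratio, KO-labelled over WT-labelled, than its RP gene in 22 of 22 pairs, with medians of 0.39 for partners and 0.06 for RP genes. In TAM/Mono cells it did so in 22 of 22, with medians of 0.51 and 0.17. These pairs were formed after values had been seen, and what set the difference was not tested.

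The copies among the 86 genes belong to this pattern. Rps27rt was at 766 and 1339.7 CPM in T cells, a log2 ratio of 0.81 against 0.56 for Rps27 and 0.59 for their sum. Rpl6l was at 326 and 470.0 CPM in TAM/Mono cells, a ratio of 0.53 against 0.12 for Rpl6 and 0.17 for the sum. Reads that match both genes of a pair cannot be assigned by sequence, so the values of Rps27rt and Rpl6l are uncertain. In T cells the sum of Rpl6 and Rpl6l had a ratio of -0.06, against -0.12 for Rpl6 alone. Outside the rule, the 16 genes with pseudogene symbols summed to 0.252% of UMIs in the WT-labelled and 0.352% in the KO-labelled library. Of those with at least 100 UMIs, 12 of 12 in T cells and 12 of 12 in TAM/Mono cells were above 0. At least 1.2-fold higher were 11 of 12 in T cells (background 16.4%) and 12 of 12 in TAM/Mono cells (background 20.9%). Fau, a small-subunit gene under another symbol, was at 4647 and 5139 CPM over all cells.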

How the data were processed

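TIIs of Maoa WT and Maoa KO mice were profiled by 10x single-cell RNA sequencing, 1 library per genotype. The submitters' processing notes name Cell Ranger and mm10. The authors aggregated both libraries with Cell Ranger, kept cells with at least 300 UMIs, 100 genes and at most 5% mitochondrial UMIs, and normalized them in Seurat. The table is described as raw counts, but the authors deposited natural log values, the log of 1 plus UMIs scaled to 10000 per cell. The planned design assumed counts. UMIs were recovered as expm1 of the value divided by the smallest nonzero step of the cell, and within a tolerance of 0.01 the result was whole for 100% of values above 0, over all 5022 cells. Aggregation can lower the depth of the deeper library before deposit, and whether it did is not given in the sources used here.

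Clusters came from Seurat 5.3.0 (R 4.3.3) on 598 variable genes, leaving out the 1 RP gene among them, with depth regressed out, 13 principal components and resolution 0.8. A cluster took the name of the marker list with the largest share detected, unless fewer than 3 markers were detected or its 10 leading genes held more markers of another list. No doublet caller was run, and leaving out cells with T-cell and myeloid UMIs was an alternative. UMIs were summed per class and library in Python 3.11.15 (numpy 2.4.6, scipy 1.17.1, pandas 2.3.3), with 0.5 UMIs added for log2 ratios and genes kept at 100 UMIs or more over the groups compared. With 1 library per genotype no test was run. Shares have exact Clopper-Pearson intervals, CPM exact Poisson intervals and ratios exact conditional intervals. Only the ratio intervals were tried on simulated data, for T cells and TAM/Mono cells. The simulated counts held Poisson error alone, which is what these intervals assume, so this checks the calculation and not the spread between cells. All of the intervals cover counting error only. The 1.2-fold line is a rule of size.

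Named genes were the 10 RP genes with the most UMIs, all paralogs, the 8 standard genes whose share of RP UMIs varied most between classes, the 5 highest and 5 lowest ratios in T cells and TAM/Mono cells, and the RP genes on chromosome X. Rpl31, the genes sharing sequence with RP genes and the genes left out of the subunit ratio were chosen after their values were seen. Some items are not reported here. The members, lists and class rules were chosen with earlier results of these data known.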

Additional observations from a re-analysis of the deposited data

Results flagged for a closer look

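Of the genes named by rule, 8 had log2 ratios, KO-labelled over WT-labelled, below 0 in T cells and above 0 in TAM/Mono cells. For each of them both 95% counting intervals left out 0. The difference was not tested, since each genotype has 1 library. Rps2, Rpl6 and Rpl28 were named for their low T-cell ratios, so the count of 8 is partly set by that choice. The medians over all genes also lay below 0 in T cells and above 0 in TAM/Mono cells. No share of all RP genes with this pattern was taken as a reference. The T-cell ratio minus the TAM/Mono ratio was -0.27 for Rpl28 (-0.12 and 0.16), -0.25 for Rps2 (-0.15 and 0.11) and -0.23 for Rpl6 (-0.12 and 0.12). It was -0.22 for Rps4x (-0.07 and 0.15), -0.20 for Rpsa (-0.02 and 0.17), -0.19 for Rpl22l1 (-0.11 and 0.08), -0.18 for Rplp0 (-0.09 and 0.10) and -0.13 for Rpl41 (-0.05 and 0.08). These directions depend on the scaling: relative to all RP UMIs, the TAM/Mono ratios of these genes were -0.09 to 0.00. Among cells of 4000 to 12000 UMIs, the T-cell ratios of Rps2, Rpl22l1, Rpl28, Rpl41 and Rpsa were 0.02 to 0.20.

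RP pseudogene symbols, outside the rule, held 0.252% of all UMIs in the WT-labelled and 0.352% in the KO-labelled library, above the level that 3 counts would give.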

How the results depend on the processing

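The main results are differences in RP share, in percentage points, and median log2 ratios of RP genes, KO-labelled over WT-labelled. With 1 library per genotype, no replicate can be left out, and depth differs between the libraries. No paired analysis was possible because each genotype has 1 library and no test was made. The share was higher in T cells than in TAM/Mono cells under all 15 alternatives in both libraries, and higher in the KO-labelled library in TAM/Mono cells and DCs under all 13. The cause of each change below was not tested, except that clusters weighted to 1 mix differ only by that weighting. "Moved" here means by more than the counting interval, which is narrow at this depth.

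Values are given as T cells, TAM/Mono cells, NK cells and DCs where each moved or turned. The KO-labelled minus WT-labelled share was 3.06 in T cells, 0.536 in NK cells and 2.89 in DCs with RP genes kept among the variable genes, which added 1 RP gene. It was -0.246 in T cells and 2.86 in DCs at resolution 0.4, and 2.91 in T cells at resolution 1.2. With 20 principal components it was -0.237, 3.07 and 2.94 in T cells, TAM/Mono cells and DCs. Without depth regression it was 3.19, 2.97, 0.498 and 2.83. With classes gated by marker UMIs, in which a cell could enter more than 1 class, it was 3.49, 3.93, -0.983 and 4.53. Without cells with T-cell and myeloid UMIs it was 3.19, 2.55 and 3.62 in T cells, TAM/Mono cells and DCs. For medians over cells it was 4.17, 3.08, -0.0939 and 3.69, and among cells of 4000 to 12000 UMIs 4.21, 3.59, 1.80 and 3.72. It was 2.51 and 2.48 in T cells and TAM/Mono cells without mitochondrially encoded genes. With clusters weighted to 1 mix it was -0.191, 1.70 and 3.03 in T cells, TAM/Mono cells and DCs. The other settings below were chosen after seeing the data. With pseudogene symbols and Fau, in place of a planned wider set, it was 2.57, 2.54 and 3.27 in T cells, TAM/Mono cells and DCs, and T cells gave 3.21 without cluster 12 and 2.64 with cluster 6.

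The T-cell minus TAM/Mono share in the WT- and KO-labelled libraries (15.4 and 15.3 as reported) was 15.4 and 16.1 with RP genes among the variable genes, 14.3 and 11.6 at resolution 0.4, 15.6 and 16.1 at resolution 1.2, 14.5 and 11.2 with 20 principal components, and 15.9 and 16.2 without depth regression. It was 15.0 in the KO-labelled library with gated classes, 16.8 and 17.5 without cells with both markers, 15.8 and 16.9 for medians, 19.1 and 19.8 in the depth window, 15.6 and 15.7 without mitochondrially encoded genes, 15.6 and 15.6 with pseudogene symbols and Fau, and 16.1 and 14.2 with 1 mix. It was 15.4 and 15.4 without cells rich in hemoglobin, 15.7 and 16.5 without cluster 12, and 15.7 and 15.9 with cluster 6.

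The median log2 ratio in T cells was 0.11 with RP genes among the variable genes, -0.0174 at resolution 0.4, 0.10 at resolution 1.2, -0.0143 with 20 principal components, 0.11 without depth regression, 0.12 gated, 0.10 without cells with both markers and 0.14 in the depth window. It was 0.13 scaled by UMIs of other genes, 0.0877 for standard genes alone, 0.0765 at a minimum of 20 UMIs, 0.11 without cluster 12 and 0.0847 with cluster 6. In TAM/Mono cells it was 0.21 with 20 principal components, 0.20 without depth regression, 0.26 gated, 0.18 without cells with both markers, 0.26 in the depth window and 0.21 scaled by UMIs of other genes.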
